A study of Mus musculus with 165 samples.

Results

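The genes described here encode 10 acute phase proteins of the liver. They are the serum amyloid A genes Saa1, Saa2 and Saa3, the orosomucoid genes Orm1, Orm2 and Orm3, haptoglobin (Hp), hemopexin (Hpx), the fibrinogen beta chain (Fgb) and hepcidin (Hamp). They were taken by symbol, as the rows of the liver and brain count tables whose Ensembl identifier maps to one of these names, and all 10 were found among the 55471 identifiers of each table. RNA was sequenced from whole liver and brain of male C57BL/6J/Ukj mice aged 3, 9, 15, 24 or 28 months, and the labels name no engineered allele and no treatment. There were 16, 16, 16, 17 and 18 livers at these ages, and 15, 16, 16, 17 and 18 brains, the brain of 1 mouse of 3 months being not analysed here. Libraries were polyA-selected and made in 3 preparations, each of which held every age in each tissue (4 to 7 libraries per age). Levels below are in CPM, counts scaled to a common library total with edgeR's TMM factors.

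Liver libraries held 5.82 to 57.5 M (mega) counts (median 32.9 M) and brain libraries 11.5 to 73.4 M counts (median 37.6 M). Albumin, the defining transcript of hepatocytes, stood at 14018 CPM or more in every liver and at 18.5 CPM or less in every brain. In bulk tissue, fewer cells of a type and less RNA per cell cannot be told apart, so each value is a share of all polyA RNA of the organ.

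Acute phase proteins are plasma proteins whose synthesis in hepatocytes changes within hours of infection or injury. Interleukin-6, acting through the transcription factor STAT3, and interleukin-1 and tumour necrosis factor, acting through NF-kB and C/EBP proteins, are the main signals. Serum amyloid A proteins bind to high-density lipoprotein and orosomucoids are acid glycoproteins that carry small molecules in plasma. Haptoglobin binds free hemoglobin and hemopexin binds free heme, fibrinogen forms the clot, and hepcidin blocks iron export by binding ferroportin. Hepcidin is driven both by interleukin-6 and by bone morphogenetic protein signals that report iron stores.

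The upstream sequences of the members that span the range of responses are shown first, since the results turn on how far the members share one course. RefSeq promoters of GRCm38.p6 were at hand for 8 of the 10 members, all but Orm1 and Hp, and each line gives, in the direction of transcription, the 200 bases from 250 to 51 before the annotated start. Capitals mark matches to TTGCNNAA (the core of a C/EBP site), to TTCNNNGAA (a STAT site) or, in Hamp, to GGCGCC (a bone morphogenetic protein response element), each searched on both strands.

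Saa1 (chr7:46743031-46743230, minus strand): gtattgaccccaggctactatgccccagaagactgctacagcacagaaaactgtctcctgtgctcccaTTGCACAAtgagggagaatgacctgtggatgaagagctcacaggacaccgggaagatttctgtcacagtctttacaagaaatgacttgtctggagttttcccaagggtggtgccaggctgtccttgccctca
Saa2 (chr7:46751583-46751782, plus strand): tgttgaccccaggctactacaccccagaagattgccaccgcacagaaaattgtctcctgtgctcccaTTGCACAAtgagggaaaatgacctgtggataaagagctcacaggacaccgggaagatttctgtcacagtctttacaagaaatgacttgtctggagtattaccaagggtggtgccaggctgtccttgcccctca
Orm2 (chr4:63362199-63362398, plus strand): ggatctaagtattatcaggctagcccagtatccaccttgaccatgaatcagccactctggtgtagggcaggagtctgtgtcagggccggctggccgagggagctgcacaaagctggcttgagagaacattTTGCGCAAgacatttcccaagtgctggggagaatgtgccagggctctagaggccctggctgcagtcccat
Hpx (chr7:105600167-105600366, minus strand): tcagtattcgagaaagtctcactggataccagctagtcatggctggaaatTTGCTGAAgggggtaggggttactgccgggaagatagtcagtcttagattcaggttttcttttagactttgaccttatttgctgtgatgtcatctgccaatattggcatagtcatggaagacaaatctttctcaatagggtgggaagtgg
Fgb (chr3:83049914-83050113, minus strand): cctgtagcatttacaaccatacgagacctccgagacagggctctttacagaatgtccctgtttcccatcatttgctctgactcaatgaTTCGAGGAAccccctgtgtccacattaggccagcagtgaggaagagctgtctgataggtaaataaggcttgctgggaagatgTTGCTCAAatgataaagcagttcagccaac
Hamp (chr7:30944080-30944279, minus strand): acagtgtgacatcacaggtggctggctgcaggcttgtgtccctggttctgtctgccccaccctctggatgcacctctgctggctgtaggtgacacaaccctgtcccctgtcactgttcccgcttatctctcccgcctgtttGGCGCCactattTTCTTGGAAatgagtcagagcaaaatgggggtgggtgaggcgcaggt

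The windows searched were the 250 bases before the start, of which the lines above print the first 200. TTGCNNAA was present in 7 of the 8 windows, all but that of Hamp. It was in 9.564% of the 32851 promoter windows of the same length. TTCNNNGAA was present in the windows of Fgb and Hamp and in 7.02% of all windows, and GGCGCC in that of Hamp and in 9.586% of all. The NF-kB site searched was in 0 of the 8 windows and in 1.412% of all, which says only that its letters are not in these windows. The motifs were chosen with the results known, and a match is a description and not a site. The promoters of Saa1 and Saa2 were 94.82% identical over the aligned bases and those of Orm2 and Orm3 85.49%.

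All 10 members passed the filter on low counts in the liver, where 15579 genes were tested with edgeR's quasi-likelihood test with age and preparation in the model. A gene was called at a Benjamini-Hochberg adjusted p under 0.05 over all of them. No member was called at 9 months against 3 months (1 at an unadjusted p under 0.05), when 4.69% of all genes were called, and none at 15 months against 3 months (1 at an unadjusted p under 0.05), when 7.32% were. At 24 months against 3 months all 10 were called, 9 higher and Hamp lower, against 49.0% of all genes called and 25.0% called higher. Without the 4 livers above 5000 CPM of Saa1, 4 were called, in a fit whose share of all genes called was not taken. At 28 months against 3 months 8 were called, all higher, against 61.9% of all genes called and 31.9% called higher. Fgb and Hamp were the members not called at 28 months. The median log2 fold change of the 10 members was 1.18 at both old ages, beside medians of -0.01 and 0.01 over all genes at 24 and 28 months.

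Between successive ages, most calls were made at 24 against 15 months, and their number is lower without the 4 livers of very high Saa1, which were picked by that level. The order turned in 2 other settings: limma on log2 CPM without those livers called 3 at 24 against 15 months and 5 at 28 against 24, and preparation 1 alone called 0 and 2. At 15 against 9 months 0 members were called (0 at an unadjusted p under 0.05), with 0.0514% of all genes called. At 24 against 15 months 9 members were called higher, all but Hamp, with 36.0% of all genes called. At 28 against 24 months 0 were called (3 at an unadjusted p under 0.05, Saa1 and Saa2 lower and Hamp higher), with 15.3% of all genes called. Without those 4 livers, 4 members were called at 24 against 15 months (Saa3, Orm2, Orm3 and Hpx) and 3 at 28 against 24 (Orm3, Hp and Hpx, all higher). Limma-voom with quality weights over all livers called 5 at 28 against 24. The share of all genes called was not taken in these other settings, and the shares above are from the main fit. Medians at 24 and 28 months were 103 and 424 CPM for Orm2, 4679 and 7302 CPM for Hp and 7654 and 11409 CPM for Hpx. The means of Orm2 went the other way, 602 and 464 CPM, and its fitted change from 24 to 28 months was -0.30 (adjusted p = 0.785), so no direction is read for it. The median of Orm3 already stood at 3.06 CPM at 15 months, beside 0.892 CPM at 3 months. Over all ages together, 9 members differed, all but Hamp (adjusted p = 0.148), as did 71.5% of all genes.

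**Figure D1:**
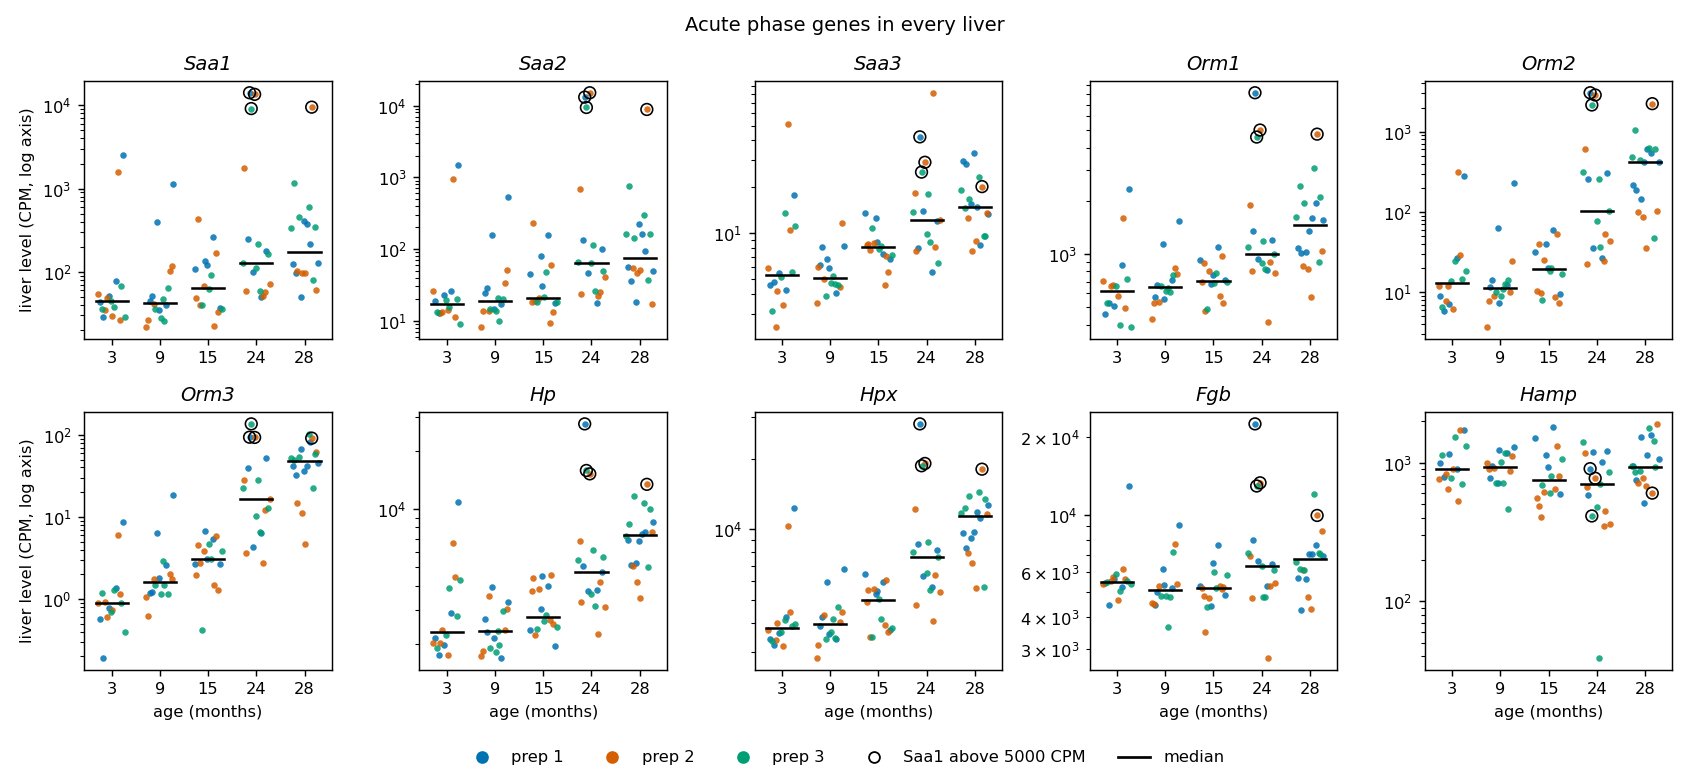
Level of each of the 10 members in every liver, in CPM on a log axis, against age in months; each point is 1 liver coloured by preparation, the bar is the median of the age, and rings mark the 4 livers above 5000 CPM of Saa1. The points of Orm2 and Orm3 shift upward at 24 and 28 months, and those of Fgb and Hamp overlap between ages, apart from 1 liver at 38.9 CPM of Hamp.

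Saa1 and Saa2, the acute phase forms secreted by hepatocytes, varied widely between mice of one age, by 284-fold and 846-fold from the lowest to the highest liver of 24 months. Saa1 ran from 26.1 to 2506 CPM at 3 months (median 44.0), from 21.7 to 1143 at 9 months (median 42.2) and from 22.3 to 430 at 15 months (median 64.6). It ran from 49.9 to 14175 CPM at 24 months (median 128) and from 50.5 to 9514 at 28 months (median 171). The ages overlapped widely: 1 of 18 livers of 28 months exceeded the highest liver of 3 months, but all 18 exceeded the 3-month median and 16 exceeded the third highest liver of 3 months. Saa2 had the same shape, with a lowest, median and highest level of 8.87, 17.4 and 1473 CPM at 3 months and of 17.1, 74.7 and 8810 CPM at 28 months. The highest Saa2 level was 15074 CPM, in a liver of 24 months. At 3 months the livers of mice 15 and 12, with 2506 and 1592 CPM of Saa1, lay far above the third highest, at 78.4 CPM.

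The fitted log2 fold change at 24 against 3 months was 3.44 ± 0.87 (SE) for Saa1 (adjusted p = 0.00073) and 4.38 ± 1.03 for Saa2 (adjusted p = 0.000283). All 17 livers of 24 months lay above the 3-month median for both genes, the medians being 2.91 and 3.61 times those of 3 months. Both 24-month calls were kept in all 83 refits that left out 1 liver, with lowest values of 2.64 and 3.37, and in limma on log2 CPM, at 2.03 (adjusted p = 0.0102) and 2.40 (adjusted p = 0.00681). Without the 4 livers above 5000 CPM of Saa1, 3 of them of 24 months, edgeR put the values at -0.030 (adjusted p = 0.976) and -0.35 (adjusted p = 0.714) and limma at 0.86 (adjusted p = 0.186) and 1.02 (adjusted p = 0.138). Those livers were picked by their Saa1 level and the high livers of 3 months were kept, so a lower value was built into that choice, and it is a description and not a test. At 28 against 3 months it was 1.84 ± 0.83 for Saa1 (adjusted p = 0.0486) and 2.26 ± 0.96 for Saa2 (adjusted p = 0.0354). A single liver held both 28-month calls: without that of mouse 14, Saa1 stood at 0.38 (adjusted p = 0.711) and Saa2 at 0.28 (adjusted p = 0.815). The call of Saa1 at 28 months was lost in 44 of the 83 refits that left out 1 liver each, and that of Saa2 in 9. Other settings, 1 of which summed the 2 genes, kept the 28-month call of Saa1 in 10 of 16. It missed the threshold in 5 and changed sign in 1. For Saa2 the call was kept in 8 of 15, missed the threshold in 6 and changed sign in 1. In preparation 1 alone, which holds 3-month mouse 15 and not 28-month mouse 14, the signs turned, to -1.44 for Saa1 and -1.78 for Saa2, neither called. The count model compares mean levels. On log2 CPM, where each liver counts alike, limma put the 28-month change at 1.77 for Saa1 (adjusted p = 0.0186) and 1.94 for Saa2 (adjusted p = 0.0215). That limma fit, chosen after seeing the data, kept both calls when the 4 livers above 5000 CPM of Saa1 were also left out, at 1.42 (adjusted p = 0.0133) and 1.52 (adjusted p = 0.0131).

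Saa3, the serum amyloid A gene that macrophages and adipocytes also express, was low in every liver. Its lowest, median and highest levels were 2.46, 5.33 and 50.9 CPM at 3 months, 5.60, 12.2 and 81.6 at 24 months and 7.61, 14.7 and 33.0 at 28 months. All 18 livers of 28 months lay above the 3-month median and 0 above the 3-month maximum, so the groups overlapped at the top. It rose by a log2 fold change of 0.98 ± 0.29 at 24 months (adjusted p = 0.00419) and of 0.82 ± 0.29 at 28 months (adjusted p = 0.0127). Without the liver of 24-month mouse 13, at 81.6 CPM, the 24-month value was 0.63 (adjusted p = 0.0479). That liver also had the highest sums of B and plasma cell markers (3737 CPM) and of T and NK cell markers (101 CPM) of the 83, and their part in its level was not tested. In preparation 2 alone, which holds 3-month mouse 12 at 50.9 CPM, the 28-month value was -0.037 and was not called. With a clock score as a covariate (mean standardised level of Dbp, Tef, Hlf, Ciart, Nr1d and Per genes minus that of Bmal1, Npas2 and Clock) it was 0.66 (adjusted p = 0.106), and the median of that score was -1.18 at 3 months and 1.47 at 28 months. Macrophage markers rose with Saa3: 12 of 12 tested were called higher at 28 months, and their summed level ran from 538 to 1897 CPM at 3 months and from 873 to 6738 CPM at 28 months. Their part in the result was not tested.

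Orm3 and Orm2 had the largest fitted changes of the 10 genes at 28 months, while at 24 months Saa2 stood at 4.38 beside 4.36 for Orm3. Orm3 ran from 0.191 to 8.72 CPM at 3 months (median 0.892) and had medians of 1.61, 3.06 and 16.6 CPM at 9, 15 and 24 months. At 28 months it ran from 4.62 to 103.6 CPM (median 47.7), and 17 of 18 livers lay above the highest liver of 3 months. The lowest count behind these levels was 6 reads in a library of 3 months, so the young values are less precise than those of the other members. Its log2 fold change was 4.36 ± 0.49 at 24 months (adjusted p = 3.83e-11) and 4.85 ± 0.50 at 28 months (adjusted p = 2.66e-13), which ranked 39 among the 15579 genes tested when ordered from the most increased to the most decreased. At 15 months against 3 months it was 1.06 ± 0.48 (adjusted p = 0.182), and limma on log2 CPM, limma-voom with quality weights and the fit without the liver of 3-month mouse 12 each called it there.

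Orm2 ran from 5.91 to 312 CPM at 3 months (median 12.9), with medians of 11.3 and 19.3 CPM at 9 and 15 months. It ran from 22.6 to 3055 CPM at 24 months (median 103) and from 35.4 to 2233 CPM at 28 months (median 424). Of the 18 livers of 28 months, 10 exceeded every liver of 3 months and all 18 exceeded the third highest, the overlap coming from the 2 highest young livers. The log2 fold change was 3.76 ± 0.70 at 24 months (adjusted p = 7.43e-06; 1.75, still called, without the 4 livers) and 3.46 ± 0.69 at 28 months (adjusted p = 1.28e-05). The ratio of the 28-month to the 3-month median was 32.9 for Orm2 and 53.5 for Orm3, beside 2.34 for Orm1.

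Orm1, the most abundant of the 3 in young liver, ran from 388 to 2326 CPM at 3 months (median 623) and from 576 to 4767 CPM at 28 months (median 1456). Nearly all old livers shifted a little: 17 of 18 lay above the 3-month median but 3 above the 3-month maximum. It rose by 1.31 ± 0.28 on the log2 scale at 24 months (adjusted p = 6.61e-05; 0.42, not called, without the 4 livers) and by 1.15 ± 0.28 at 28 months (adjusted p = 0.000238). The 3 genes lie next to each other on chromosome 4 (GRCm38, Orm1 at chr4:63344560-63348163, Orm3 at chr4:63356162-63359511 and Orm2 at chr4:63362449-63365878, all on the plus strand). Their transcripts are 86.08% to 90.97% identical. Of the 676 windows of 100 bases in the Orm1 transcript, 47 also occur in Orm2, so reads there could be split or lost in counting. No window of Orm3, or of any of the other members, was shared between members, although Saa1 and Saa2 transcripts are 87.33% identical.

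Haptoglobin and hemopexin, the scavengers of hemoglobin and heme, rose together from high starting levels. Hp ran from 1736 to 10905 CPM at 3 months (median 2289) and had a median of 4679 CPM at 24 months. At 28 months it ran from 3433 to 13390 CPM (median 7302), so that every old liver lay above the 3-month median while 2 exceeded the young maximum. Hpx ran from 3185 to 12284 CPM at 3 months (median 3803) and from 5623 to 18032 CPM at 28 months (median 11409). For Hpx, all 18 old livers lay above the third highest young liver and 6 above the highest. Log2 fold changes at 28 months were 1.14 ± 0.24 for Hp (adjusted p = 3.67e-05) and 1.21 ± 0.19 for Hpx (adjusted p = 8.51e-08), and at 24 months 1.06 ± 0.24 and 1.05 ± 0.19 (adjusted p = 0.000231 and 4.84e-06). Without the 4 livers, the 24-month values were 0.37 for Hp, not called, and 0.59 for Hpx, called. Hpx was called at 28 months in each of the 3 preparations tested alone. The 28-month call of Hp was kept in 13 of 15 settings other than leaving out 1 liver and missed the threshold in 2.

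Fgb, the beta chain of fibrinogen, changed little against 3 months. It ran from 4460 to 12915 CPM at 3 months (median 5500), from 2776 to 22514 CPM (median 6323) at 24 months and from 4277 to 12046 CPM at 28 months (median 6726). The 3-month maximum was exceeded by 3 of 17 livers at 24 months and by 0 of 18 at 28 months. Its log2 fold change was 0.36 ± 0.16 at 24 months (adjusted p = 0.0452) and 0.21 ± 0.15 at 28 months (adjusted p = 0.233). The call at 24 against 3 months was kept in 4 of 15 other settings, missed the threshold in 9 and changed sign in 2. Both of those left out the 4 livers above 5000 CPM of Saa1 (-0.034 with edgeR and -0.027 with limma on log2 CPM). The call was also lost in 15 of 83 refits that left out 1 liver. The lowest value, 0.19 (adjusted p = 0.266), came without the liver of 24-month mouse 5. At 24 against 15 months Fgb stood at 0.52 ± 0.16 (edgeR adjusted p = 0.00608), and it was not called there without the 4 livers.

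Hamp, the iron-regulating hormone, did not follow the others. It ran from 527 to 1726 CPM at 3 months (median 904), from 38.9 to 1415 CPM at 24 months (median 704) and from 510 to 1904 CPM at 28 months (median 934). The ages lay on top of each other, except for 1 liver of 24 months, that of mouse 10, at 38.9 CPM. The log2 fold change was -0.49 ± 0.21 at 24 months (adjusted p = 0.0491), a call lost in 50 of 83 refits that left out 1 liver and in 8 of 15 other settings. At 28 months it was 0.01 ± 0.21 (adjusted p = 0.971).

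**Figure D2:**
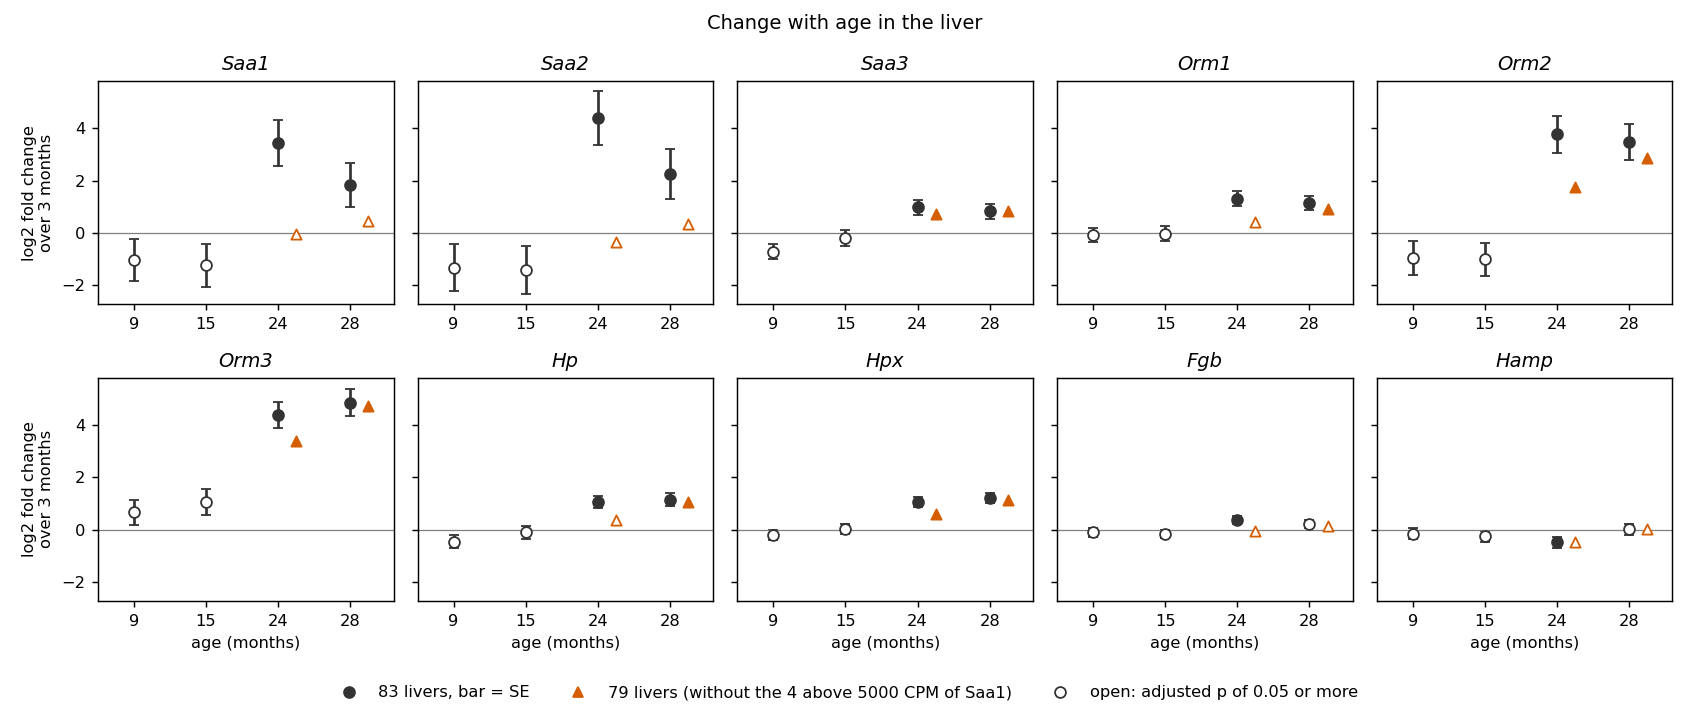
Log2 fold change against 3 months in the liver for each member at 9, 15, 24 and 28 months, as circles with bars of 1 SE from edgeR over 83 livers, and, at 24 and 28 months, as triangles without the 4 livers above 5000 CPM of Saa1; filled symbols are called at an adjusted p under 0.05. No member is filled at 9 or 15 months, and Orm3 reaches 4.36 at 24 months and 4.85 at 28 months while Hamp lies at -0.49 and 0.01.

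Levels per kilobase of transcript place the members on a common scale. At 3 months the order by median was Hpx (2537 CPM per kilobase), Hamp (2205), Hp (1701), Fgb (1444), Orm1 (803), Saa1 (72.3), Saa2 (26.6), Orm2 (16.6), Saa3 (2.42) and Orm3 (1.15). At 28 months Hpx (7611 CPM per kilobase) and Hp (5429) led, Orm2 (547) had passed Saa1 (281) and Saa2 (115), and Orm3 (61.7) had passed Saa3 (6.67). The highest level per kilobase of any member in any liver was 23275, that of Saa1 in a liver of 24 months. At 3 months each member overlapped in range with the next in this order.

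In 4 livers Saa1 stood above 5000 CPM, where the next highest of the 83 had 2506 CPM. They were the livers of 24-month mice 5, 6 and 8 and of 28-month mouse 14, they came from all 3 preparations, and they held 32.3 to 43.0 M counts each. Their Saa1 levels were 14175, 9145, 13563 and 9514 CPM, and their Saa2 levels 13093, 9393, 15074 and 8810 CPM. Hp reached 27553 CPM, Hpx 28115 CPM and Fgb 22514 CPM in the first of them. Each of the 4 was among the 10 highest livers for 9 of the 10 members, and for Hamp they ranked 38, 79, 53 and 69 of 83. The liver of 28-month mouse 12 was among the 10 highest for all 10 members, with 596 CPM of Saa1.

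Other genes moved with the members in these 4 livers. Lcn2, which binds bacterial iron carriers, stood at 1115 to 3956 CPM, beside a median of 161 (11.6 to 705) in the other 31 livers of 24 and 28 months. Socs3, a feedback target of STAT3, stood at 69.5 to 220 CPM beside a median of 22.6 (6.32 to 51.3). Albumin, which falls in the acute phase, stood at 14018 to 53656 CPM beside a median of 76363 (43734 to 101255). The 10 hepatocyte markers, albumin among them, summed to 26979 to 73738 CPM beside a median of 100213 CPM (59006 to 122340). That sum therefore repeats the albumin values in part. Neutrophil markers summed to 43.3 to 459 CPM beside 5.03 to 799, and the bile duct and tumour-associated markers to 188 to 522 CPM beside 44.0 to 186, with Spp1 at 153 to 492 CPM and Afp at 0.538 CPM or less. The part of these cells in the members' levels was not tested.

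Without these 4 livers, a choice made after seeing the data, 79 livers gave 6 members called at 28 against 3 months and 4 at 24 against 3 months. The share of all genes called over the 79 livers was not taken, so these counts have none beside them. At 28 months Orm3 stood at 4.71, Orm2 at 2.87, Hpx at 1.14, Hp at 1.06, Orm1 at 0.91 and Saa3 at 0.84 on the log2 scale, all called. At 24 months Orm3 (3.39), Orm2 (1.75), Saa3 (0.73) and Hpx (0.59) were called, while Saa1 (-0.030), Saa2 (-0.35), Fgb (-0.034), Hp (0.37, adjusted p = 0.117), Orm1 (0.42, adjusted p = 0.0769) and Hamp (-0.47, adjusted p = 0.0806) were not. At 28 against 24 months Orm3, Hp and Hpx were then called higher.

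**Figure D3:**
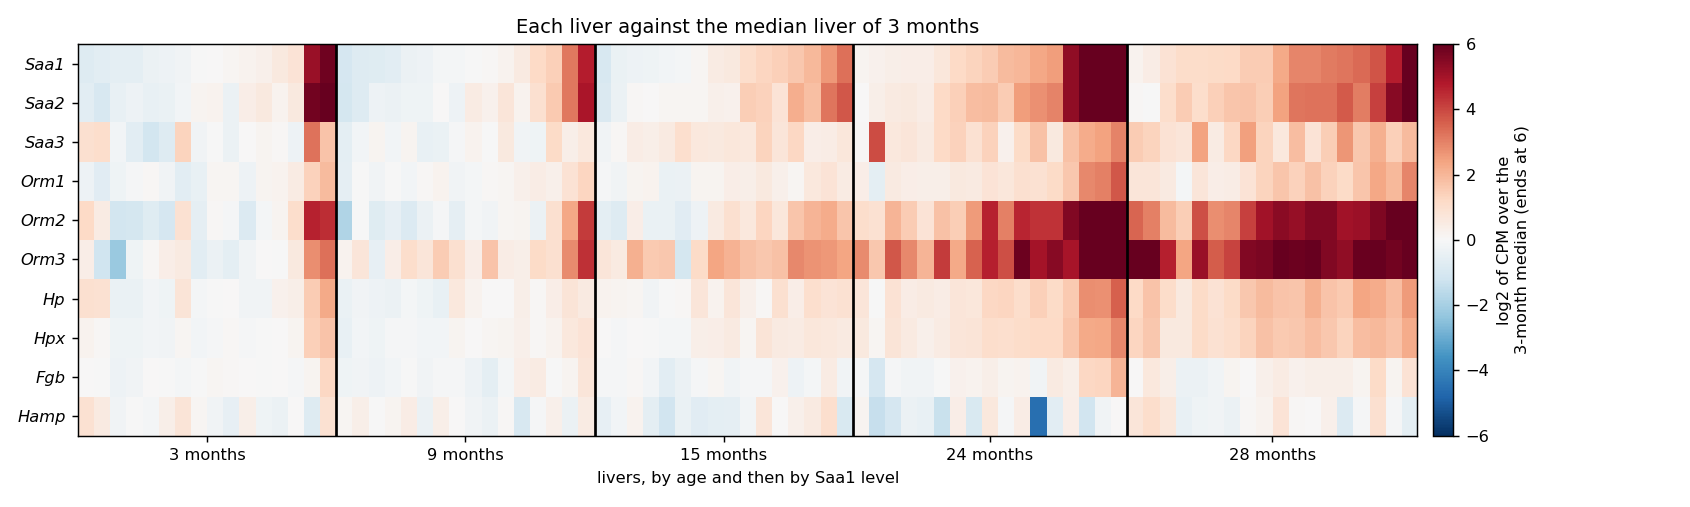
Level of the 10 members (rows) in the 83 livers (columns, ordered by age and within an age by Saa1), as the log2 of a member's CPM over its 3-month median, with the colours ending at 6. The 4 livers above 5000 CPM of Saa1 are at the end of the colours in the Saa1 and Saa2 rows, as is that of 3-month mouse 15 in the Saa2 row, and the rows of Orm2 and Orm3 are raised across most livers of 24 and 28 months.

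Mice high in one member for their age were high in most others. Over the 83 livers, with the means of age and preparation removed from log2 CPM, 35 of the 45 pairs of members correlated at an adjusted p under 0.05 in a two-sided permutation test within ages. The 28 pairs without Hamp and Saa3 had Pearson's r of 0.68 to 0.99 and Spearman's rho of 0.54 to 0.97, with r of 0.51 to 0.99 within single preparations. The closest pairs were Saa1 with Saa2 (r = 0.99), Orm2 with Hpx (r = 0.94) and Hp with Hpx (r = 0.93), each at an adjusted p of 1.55e-05 by permutation, the smallest that the permutations could give. Leaving out the 2 livers farthest from the median kept these 28 pairs at r of 0.64 to 0.99, and leaving out the 4 livers above 5000 CPM of Saa1 at 0.53 to 0.98. The 2 values of a pair come from the same library and share its scaling and depth.

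Saa3 and Hamp correlated less with the others. Saa3 correlated with the other 8 besides Hamp at r of 0.22 to 0.55, 7 of them past the threshold and that with Fgb not (adjusted p = 0.108 by permutation). Those 8 pairs spanned 0.00 to 0.48 without the 4 livers, and 0.41 to 0.64 without the 2 livers farthest from the median. Hamp had r of -0.09 to 0.28 with the other 9 and no Pearson correlation past the threshold, while by Spearman's rho that with Fgb passed it (rho = 0.25, adjusted p = 0.0388 by permutation). Within a preparation the pairs of Hamp spanned -0.22 to 0.38.

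**Figure D4:**
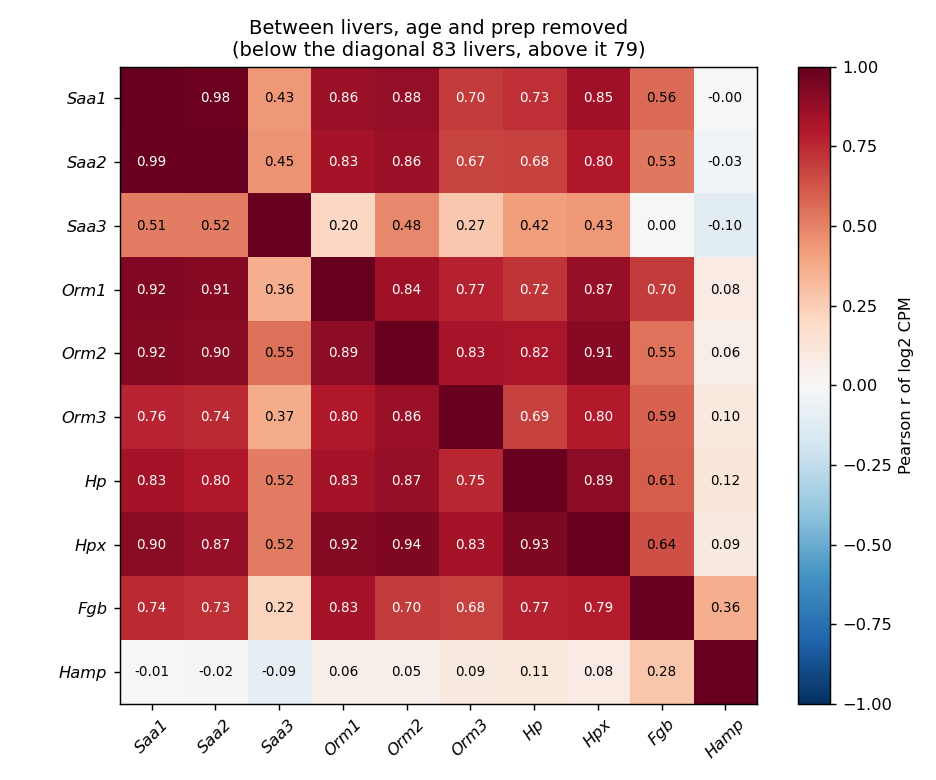
Pearson's r between each pair of the 10 members after removing the means of age and preparation from log2 CPM; below the diagonal over 83 livers and above it over the 79 livers left without the 4 above 5000 CPM of Saa1, as colour. Below the diagonal, all cells among the members other than Saa3 and Hamp lie at 0.68 or above, and those of Hamp lie between -0.09 and 0.28.

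The genes most like a member in this deviation from the age mean were ranked by Spearman's rho over 83 livers and 12736 genes. For Fgb they were the other fibrinogen chains, Fgg (rho = 0.96) and Fga (0.95), followed by Itih4 (0.84) and Itih3 (0.82). For Hp they were Lrg1 (0.86), Lbp (0.85), Tmem176b (0.83) and Lcn2 (0.81), and for Hpx Lcn2 (0.90), Tmem176b (0.86), Tmem176a (0.86) and Fgl1 (0.85). For Orm2 they were Lcn2 (0.91), Cyb561 (0.82), Itih3 (0.81) and Serpina10 (0.80), and for Saa2 Lcn2 (0.84), Cyb561 (0.78), Serpina10 (0.76) and Serping1 (0.75). For Orm3 they were Lcn2 (0.81), Itih3 (0.74), Serpina3n (0.74) and Lbp (0.71), and for Saa3 Tmem268 (0.76), Aldh3b1 (0.76), the adhesion molecule Icam1 (0.76) and Naaa (0.72). The genes most opposite to Saa2 were Acsl1 and Acot1 (both -0.65), Inmt (-0.60) and Aldh3a2 (-0.59). For Hamp the closest were Gm4673 (0.68), Id1 (0.63), a target of bone morphogenetic protein signals, Gemin2 (0.61) and Jkamp (0.60).

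The spread between mice was tested on absolute deviations of log2 CPM from the median of the age with limma. No member's spread differed at 28 against 3 months (0 at an unadjusted p under 0.05), when 1.49% of all genes did. At 24 against 3 months 0 of the members passed, beside 0.372% of all genes, and 4 had an unadjusted p under 0.05 (Saa1, Saa2, Orm2 and Fgb, all wider at 24 months). The mean deviation of Saa2 was 2.27 log2 units at 24 months and 1.10 at 3 months (unadjusted p = 0.0322, adjusted p = 0.297 by limma).

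The pathways around the members were read from gene lists in the liver at 28 against 3 months, where 61.9% of all genes were called and 31.9% were called higher. Of 24 other positive acute phase genes tested, 18 were called higher and 2 lower, with a median log2 fold change of 0.98 beside 0.01 over all genes. Mt1 (4.50 ± 0.79), Lcn2 (4.06 ± 0.74) and Mt2 (4.05 ± 0.95) led, the metallothioneins being zinc and copper binders. Fga (0.05) and Fgg (0.07), the partners of Fgb, were not called, and Serpina3k (-1.47) and Mbl1 (-0.68) were lower. Of 12 negative acute phase genes, 2 were called higher (Trf 0.57, Serpina6 0.40) and 3 lower (Ttr -0.77, Apoa2 -0.52, Igfals -0.41).

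Of 17 genes of the interleukin-6 and STAT3 pathway, 10 were called higher and 1 lower: the feedback inhibitors Socs3 (2.02 ± 0.35) and Socs1 (1.29 ± 0.33) and the transcription factor Cebpd (1.06 ± 0.23) rose most, and the receptor Lifr fell by 1.01. Of 24 interleukin-1 and NF-kB genes, 14 were called higher and 4 lower, with the cytokines Tnf (1.86 ± 0.35) and Il1b (1.75 ± 0.27) and the inhibitor Tnfaip3 (1.42 ± 0.20) at the top and the co-receptor Il1rap at -0.73. Among 23 genes of hepcidin and bone morphogenetic protein control, 5 were higher and 7 lower, including Hamp2 (1.01), the exporter Slc40a1 (0.44), ferritin light chain Ftl1 (-0.43) and the hepcidin suppressor Tmprss6 (-0.32). Of 8 heme clearance genes, 5 were higher and 0 lower, with heme oxygenase Hmox1 (1.71 ± 0.22) and the heme importer Flvcr2 (1.57 ± 0.19) first. Of 8 lipoprotein and serum amyloid A receptor genes, 4 were higher, with Fpr2 (1.88), Fpr1 (1.16) and Cd36 (0.83), and 2 were lower, Abca1 (-0.39) and Apoe (-0.30). The counts were not tested against the share over all genes, and nothing particular to a list is read from them.

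Markers of immune cells also rose, while those of other cells were mixed. All 10 neutrophil markers tested were called higher, their summed level running from 1.88 to 19 CPM at 3 months and from 6.42 to 799 CPM at 28 months. B and plasma cell markers were higher in 8 of 9 tested (29.0 to 93.8 CPM at 3 months, 111 to 1902 CPM at 28 months), T and NK cell markers in 8 of 10 (4.05 to 35.7 CPM at 3 months, 9.06 to 47.1 CPM at 28 months). Of 10 hepatocyte markers, 1 was higher and 4 lower, and their sum ran from 64764 to 104556 CPM at 3 months and from 26979 to 119673 CPM at 28 months. Of 5 erythroid markers tested, 3 were higher and 1 lower, and of 10 stellate and endothelial markers 5 and 1. Of 8 bile duct and tumour-associated markers, 4 were higher and 1 lower, and of 3 adipocyte markers 0 and 1. The part of these cells in the members' changes was not tested. Of 13 clock genes tested, 6 were called higher at 28 months, Ciart (4.03 ± 0.57) among them, and 4 lower, Npas2 (-1.36 ± 0.35) among them. From the youngest to the oldest age, the median clock score was -1.18, -0.83, -0.67, -0.60 and 1.47. By the median, livers of 28 months thus differed in this score as well as in age, and the cause was not tested.

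In the brain, 2 members passed the filter on low counts, Hp and Hpx, and the other 8 had medians of 0.128 CPM or less at every age. Hp ran from 0 to 0.294 CPM at 3 months (median 0.113), from 0.129 to 0.782 CPM at 24 months (median 0.328) and from 0.148 to 1.72 CPM at 28 months (median 0.539). Of 18 brains of 28 months, 15 lay above every brain of 3 months. Its log2 fold change was 1.36 ± 0.33 at 24 months (adjusted p = 0.00303) and 2.16 ± 0.32 at 28 months (adjusted p = 1.52e-07), when 10.1% and 28.3% of the brain's genes were called. It also differed over all ages (adjusted p = 3.25e-08), as did 20.6% of genes. These levels rest on 0 to 12 counts per library at 3 months and 5 to 65 at 28 months.

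Hpx in the brain ran from 0.118 to 0.551 CPM at 3 months (median 0.347) and from 0.105 to 1.43 CPM at 28 months (median 0.414), and was not called (0.40 ± 0.20, adjusted p = 0.121). The brain of 28-month mouse 5 held 18.5 CPM of Alb, where the next highest brain held 0.898 CPM, and was the highest of all brains for Hpx (1.43 CPM), Fgb (1.22 CPM) and Hamp (0.343 CPM). Without it, Hp stood at 2.05 (adjusted p = 6.18e-07) and Hpx at 0.23 (adjusted p = 0.357). The brain of 28-month mouse 15, the shallowest at 11.5 M counts, was the highest for Hp (1.72 CPM) and Saa1 (0.919 CPM), and without it Hp stood at 2.08 (adjusted p = 1.65e-07). Neutrophil markers rose in the brain too, with 6 of 6 tested called higher and a summed level of 0.342 to 5.07 CPM at 3 months and 2.14 to 46.8 CPM at 28 months. Erythroid markers were higher in 4 of 6 (30.1 to 234 CPM at 3 months, 34.5 to 726 CPM at 28 months) and macrophage markers in 7 of 7 (224 to 304 CPM and 249 to 697 CPM), with none lower. Their part in the level of Hp was not tested.

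The change from 3 to 28 months was compared between tissues in 1 model over 14035 genes, 49.2% of which differed. Hpx rose more in the liver, by 0.88 ± 0.30 log2 units (adjusted p = 0.0106). For Hp the difference, liver minus brain, was -0.93 ± 0.44 (adjusted p = 0.0668) and did not pass. Over 82 mice with both organs, with age and preparation means removed, Hp in liver and brain correlated at r = 0.34 (permutation p = 0.00132, adjusted p = 0.00264 over 2 relations) and rho = 0.33 (permutation p = 0.00241, adjusted p = 0.00482). Within the 3 preparations r was 0.25, 0.47 and 0.30, and among the 28-month mice alone it was 0.22. Without the 2 mice farthest from the median in the liver it was 0.34, a choice that did not use the brain values. Hpx showed no such relation (r = -0.04, permutation p = 0.74, rho = -0.00, permutation p = 0.987).

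**Figure D5:**
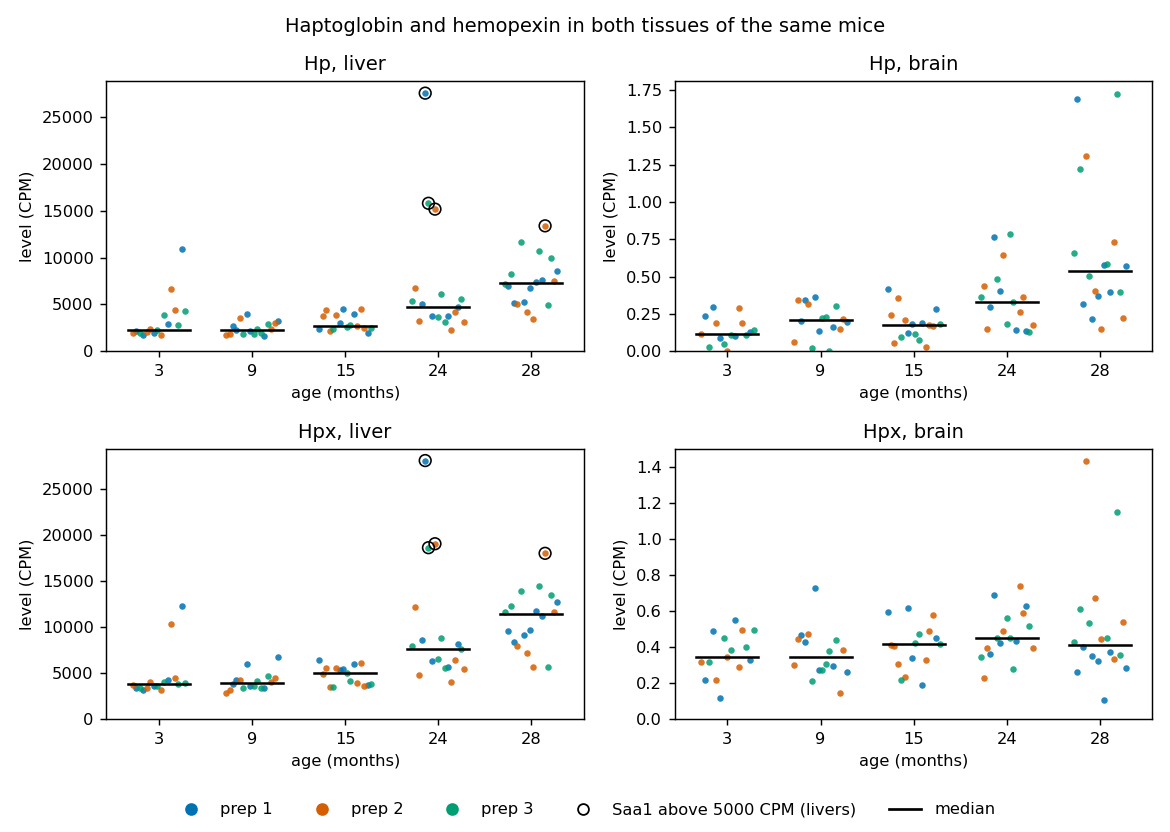
Levels of Hp and Hpx in every liver and every brain, in CPM on linear axes from 0, against age in months; each point is 1 library, coloured by preparation, the bar is the median of the age, and rings mark the 4 livers above 5000 CPM of Saa1. Hp shifts upward with age in both organs, from a median of 2289 to 7302 CPM in the liver and of 0.113 to 0.539 CPM in the brain, while Hpx does so in the liver.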

How the data were processed

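The deposited tables hold raw read counts per Ensembl gene, 1 for liver and 1 for brain, which the authors made with cutadapt 2.8, HISAT2 2.1.0, SAMtools 1.9 and featureCounts of Subread 2.0.1 against GRCm38.p6 (mm10), per the submitters' processing notes. The annotation release and the settings for strand and multimapping reads were not given in the sources used here. Of 55471 identifiers, 55144 matched a symbol. A liver and a brain with the same age and number were taken as 1 mouse.

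Counts were tested in R 4.3.3 with edgeR 4.0.16 (TMM, filterByExpr, quasi-likelihood test, age and preparation as terms, all ages of a tissue in 1 fit), with Benjamini-Hochberg adjustment over all genes tested. SE is the size of the log2 fold change over the square root of F. limma 3.58.1 (log2 CPM, prior count 2) tested spread, and DESeq2 1.42.0 was an alternative. Correlations used 100000 permutations within age. The steps were tested on simulated data. The members and lists were chosen with earlier results of these data known. Named genes are all members and up to 3 called genes at each end of a list by 28-month change (mean of at least 1 CPM). Also named are the 4 genes outside the members most like Saa2, Orm2, Hp, Fgb, Hpx and Hamp (and least like Saa2). The genes most like Orm3 and Saa3, and Alb, Spp1 and Afp in 4 livers, were added after their values were seen. Macrophage, neutrophil, lymphocyte, hepatocyte, bile duct, adipocyte, red blood cell, stellate and endothelial, choroid plexus and meninges markers and clock genes were read as lists.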

Additional observations from a re-analysis of the deposited data

Results flagged for a closer look

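The change of Hpx from 3 to 28 months differed between the tissues, and this difference was tested in 1 model over both: liver minus brain was 0.88 ± 0.30 log2 units (edgeR adjusted p = 0.0106 over 14035 genes). Hpx rose in the liver by 1.21 ± 0.19 and stood at 0.40 ± 0.20 in the brain, where it was not called. Paired within 82 mice, the difference was 0.94 (limma adjusted p = 0.00289).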

How the results depend on the processing

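The other settings tried were RLE scaling, DESeq2, limma-voom with quality weights, other filters, no preparation term, only the 2 ages compared, a clock score as a covariate, each preparation alone, the replicate number as a block and each liver left out in turn. Limma on log2 CPM, the fits without 4 livers and those without single brains were added after seeing the data. The share of all genes called was taken from the main fits only, so counts of members in other settings have none beside them. Orm3 at both old ages and Hpx at 28 months were each called in all 15 settings other than leaving out 1 liver.

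Leaving out 1 liver gave 6 to 8 members called at 28 against 3 months, 8 to 10 at 24 against 3, 9 in every refit at 24 against 15, 0 to 2 at 28 against 24 (Saa1 and Saa2 lower without 28-month mouse 14) and 0 to 1 at 15 against 3 months. Preparations 1 and 2 alone gave 3 and 2 members called at 28 against 3 months, 1 and 1 at 24 against 3, 0 and 5 at 24 against 15, and preparation 1 gave 2 lower (Saa1 and Saa2) at 28 against 24 months. In the brain, preparations 1, 2 and 3 alone gave 0, 0 and 0 members at 24 against 3 months and preparation 2 gave 0 at 28 against 3, where Hp stood at 1.74. These fits hold fewer samples. At 28 against 3 months Saa1, Saa2 and Saa3 turned to -1.44 and -1.78 (preparation 1) and -0.037 (preparation 2).

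Without the 4 livers above 5000 CPM of Saa1, 4 members were called at 24 against 3 months, 4 at 24 against 15 and 3 at 28 against 24, and Saa1 (-0.030), Saa2 (-0.35) and Fgb (-0.034) turned sign at 24 against 3 months. With limma on log2 CPM as well, 3 were called at 24 against 15 months, 5 at 28 against 24 and 1 at 15 against 3, and Fgb stood at -0.027. Limma on log2 CPM over all livers called 1 at 15 against 3 months (Orm3) and 1 at 28 against 24 (Hamp), and voom called 1 and 5; the cause was not tested.

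Livers of different ages with the same number did not deviate together (mean r -0.01 over 161 pairs, 0.00 over 2593 other pairs), so numbers only name mice. With the replicate number as a block, 7 members were called at 28 against 3 months, Saa2 standing at 2.46 (adjusted p = 0.0589), and 9 at 24 against 3, Fgb standing at 0.31 (adjusted p = 0.0862). Summing Saa1 with Saa2 and the 3 Orm genes gives no count of members. Brain levels of the members rest on few reads, which limits what can be seen there.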
